A study of Mus musculus with 2 samples.

Results

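Protein phosphatases were examined in RNA-seq data from the second polar body (PB2) and the zygote of the mouse. Genes were taken by symbol, as those beginning with Ppp1 to Ppp6, Ppm1, Dusp and a digit, Ptpn and a digit, Ptpr and a letter, or Ptp4a. The deposited table of 11262 genes holds 106 of them, of which 63 fall in the serine/threonine class (Ppp and Ppm1), 12 in the dual-specificity class (Dusp) and 31 in the tyrosine class (Ptpn, Ptpr and Ptp4a). Regulatory and scaffold subunits are included with the enzymes they bind. The study separated PB2 from embryos at the late 1-cell stage to look for molecules that PB2 holds. Both groups were untreated embryos of the strain labelled C57BL/6, given as C57BL/6N in the study's general methods. They came from superovulated females, and were taken from the oviduct and cultured in KSOM. The zona pellucida was dissolved in acid Tyrode's solution, and PB2 was detached in trypsin by pipetting. Cumulus cells had been removed with hyaluronidase, and the labels give the same protocol for both groups without saying whether each zygote had lost its PB2. There was 1 library of pooled PB2s and 1 library of pooled zygotes, each made from amplified full-length cDNA of polyadenylated RNA. With no replicates, the spread between samples of a kind is unknown, no test was run, and each difference describes these 2 libraries.

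Protein phosphatases remove the phosphate groups that kinases add. Serine/threonine phosphatases of the PPP family work as holoenzymes, in which a small set of catalytic subunits is directed to substrates by many regulatory subunits, while the PPM1 enzymes are magnesium-dependent and mostly act without such partners. Dual-specificity phosphatases include the enzymes that switch off MAP kinases, and tyrosine phosphatases are either intracellular (Ptpn, Ptp4a) or receptor-like (Ptpr). In the egg, exit from the second meiotic arrest involves both the fall of cyclin-dependent kinase activity and the removal of phosphates by PP1 and PP2A. Calcineurin, the calcium-activated phosphatase, has been linked to the response to the fertilization calcium signal.

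Values are TPM, transcript abundances on a fixed library total, which adjust for gene length and carry no record of the number of reads. Depth is therefore unknown, and TPM gives proportions within a library, so fewer cells and less RNA per cell cannot be told apart. The 11262 genes of the table sum to 898326 TPM in PB2 and 927063 in the zygote, so the table does not hold the same total for both. A gene missing from it is not thereby shown to be at 0. Where a pair of TPM values is given for a gene without naming the libraries, PB2 comes first and the zygote second. The tissue check used 14 oocyte genes, all of which were in the table, at 99.5 to 12012 TPM (PB2) and 62.7 to 13021 TPM (zygote), and 4 of them were at least 2-fold above the zygote in PB2. Of 14 cumulus and granulosa cell markers, 4 were in the table and summed to 76.4 TPM in PB2 against 74.7 in the zygote, nearly all of it Cyp19a1, with Cyp11a1 listed at 0 in the zygote. Of 9 leukocyte markers 2 were in the table and summed to 12.7 and 10.3 TPM, and of 8 sperm markers 3 summed to 40.5 and 30.3 TPM. No summed marker list was 2-fold apart between the libraries.

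Most phosphatase genes had transcripts in both libraries, and the larger differences were mostly towards PB2. A TPM of at least 1 was reached by 99 of the 106 genes in PB2, by 97 in the zygote and by 95 in both. Of the 11262 genes of the table, 10260, 9934 and 9549 did so, which is also most of them. Genes were compared by the log2 ratio, log2((PB2 TPM + 1)/(zygote TPM + 1)), where the pseudocount of 1 understates the change of low genes. Every 2-fold call for a gene is on this scale. Some genes called within 2-fold therefore have printed TPM values more than 2-fold apart. The 101 members with at least 1 TPM in either library were compared, and Ppm1f, Ppp2r3a, Ptpn4, Ptprq and Ptpru stayed below that in both. PB2 was at least 2-fold higher for 26 members, 25.7% of those compared, against 18.9% of the 10645 genes compared in the whole table. The zygote was at least 2-fold higher for 3 members, 2.97%, against 8.09% of all genes. Without a threshold, PB2 had the higher TPM for 69 of the 101 members (68.3%) and for 59.2% of all genes compared, the share against which such counts for the families are to be read. The median log2 ratio was 0.49 for the members and 0.21 for all genes. Relative to that overall median, 18 members were 2-fold higher in PB2 and 6 in the zygote, with no such count over all genes given here.

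By class, PB2 was at least 2-fold higher for 16 of 61 serine/threonine genes (26.2%), 3 of 12 dual-specificity genes (25%) and 7 of 28 tyrosine genes (25%). Median log2 ratios were 0.48, 0.64 and 0.31 in that order, all above the median of all genes. Summed TPM of the members was 5560 in PB2 and 3552 in the zygote. The sums were 2291 and 1364 TPM for serine/threonine genes, 1587 and 975 TPM for dual-specificity genes, and 1682 and 1212 TPM for tyrosine genes. The largest differences in TPM towards PB2 were those of Ptpn21, Dusp14, Ppm1b and Dusp7, each described with its family. The log2 ratio also moved with the GC content of the transcript, for which values are given after the families.

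**Figure D1:**
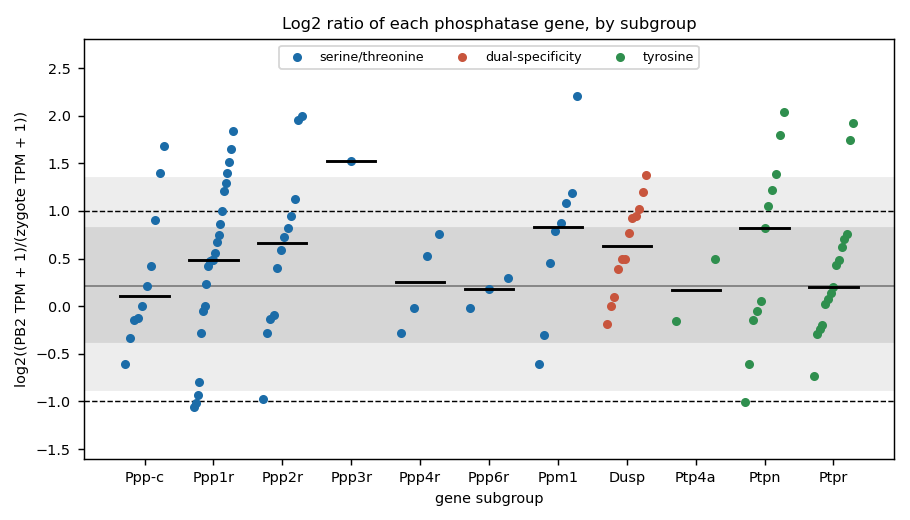
Each point is 1 phosphatase gene, placed by its log2 ratio of PB2 over zygote TPM (y axis, pseudocount of 1) and by gene subgroup (x axis, Ppp-c being the catalytic subunits), with black bars at subgroup medians, dashed lines at 2-fold, and dark and light bands for the middle 25th to 75th and 10th to 90th percentiles of all genes compared. Medians run from 0.11 for the catalytic subunits to 0.83 for Ppm1 among subgroups with more than 1 gene, against the grey line at 0.21 for all genes.

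The catalytic subunits of the PPP family stood close to equal in most cases, with Ppp1cc and Ppp5c as the exceptions. All 10 in the table reached at least 1 TPM in both libraries, and their median log2 ratio was 0.11. Their active site is shown first, because it is the part that these genes share and because similar paralogs can share reads. The sequences run from the first codon of the PPP signature, in which glycine and aspartate are followed by any residue and then by valine, aspartate, arginine and glycine, through the 3 codons after it. The signature was found in 10 of the 10 genes in the longest coding transcript of GENCODE M21 (GRCm38). Capitals mark bases that differ from Ppp1ca.
Ppp1ca: ggggattatgtagatcggggcaagcagtct
Ppp1cb: ggAgattatgtGgaCAgAggAaagcagtct
Ppp1cc: ggggaCtatgtGgaCAggggcaagcagtcC
Ppp2ca: ggAgaCtatgtGgaCAgAggATaTTaCtct
Ppp3ca: ggggaCtatgtTgaCAgAggGTaCTTCAGt
Ppp3cb: ggTgattatgtGgaCAgAggTTaTTTTAGt
Ppp3cc: ggTgaCtatgtGgaCAgAggcTaTTTCAGt
Ppp4c: ggAgaCtTtgtGgaCcgTggTTTCTaCAGt
Ppp5c: ggCgattTtgtGgaCcgTggTTCCTTCtcC
Ppp6c: ggTgattTtgtagaCAgAggTTaCTaTAGt

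Each of these windows lies within 1 coding exon. In GRCm38 the window is chr19:4193105-4193134 on the plus strand for Ppp1ca (exon 3), chr5:32480773-32480802 plus for Ppp1cb (exon 3), chr5:122169002-122169031 plus for Ppp1cc (exon 3) and chr11:52113267-52113296 plus for Ppp2ca (exon 2). For the calcineurin genes it is chr3:136868691-136868720 plus for Ppp3ca, chr14:20530950-20530979 minus for Ppp3cb and chr14:70266636-70266665 minus for Ppp3cc, each in exon 3. It is chr7:126788150-126788179 minus for Ppp4c (exon 4), chr7:17007793-17007822 minus for Ppp5c (exon 7) and chr2:39204945-39204974 minus for Ppp6c (exon 4). Over these 30 bases Ppp1cb differed from Ppp1ca at 6 positions and Ppp1cc at 5, while Ppp4c differed at 14. The longest exact run shared by coding sequences within PP1 was 44 bases, between Ppp1ca and Ppp1cc, and within calcineurin it was 23 bases.

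PP1 had the largest summed TPM of the catalytic groups, and its make-up differed between the libraries. Ppp1ca had 82.0 TPM in PB2 against 89.3 in the zygote. Ppp1cb had 20.7 TPM in PB2 against 17.7 in the zygote. Ppp1cc, which is found at kinetochores and in the nucleolus in dividing cells, had 31.6 TPM in PB2 against 9.2 in the zygote, a log2 ratio of 1.68. Summed TPM of the 3 genes was 134.3 in PB2 and 116.2 in the zygote, with Ppp1ca at 61.1% of the PB2 sum and 76.9% of the zygote sum. The Ppp1cc value is uncertain in its level, since 58.8% of the 50-base words of its transcript also occur in transcripts of other genes, mainly Ppp1ccb.

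Among the other catalytic subunits, only Ppp5c was 2-fold apart. Ppp5c, which encodes a phosphatase with its own protein-binding repeats and works with Hsp90, had 9.8 TPM in PB2 against 3.1 in the zygote, a log2 ratio of 1.40, or 0.66 with the trend of the log2 ratio on transcript GC content over all genes removed. Ppp4c had 85.2 and 45.0 TPM, a log2 ratio of 0.91, just inside 2-fold. Ppp2ca, a catalytic subunit of PP2A, had 19.9 TPM in PB2 against 14.6 in the zygote. Ppp6c, whose enzyme restrains Aurora A at the spindle, had 11.4 and 14.6 TPM. Ppp2ca, Ppp4c and Ppp6c were thus each within 2-fold. Ppp2cb was not analysed here.

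**Figure D2:**
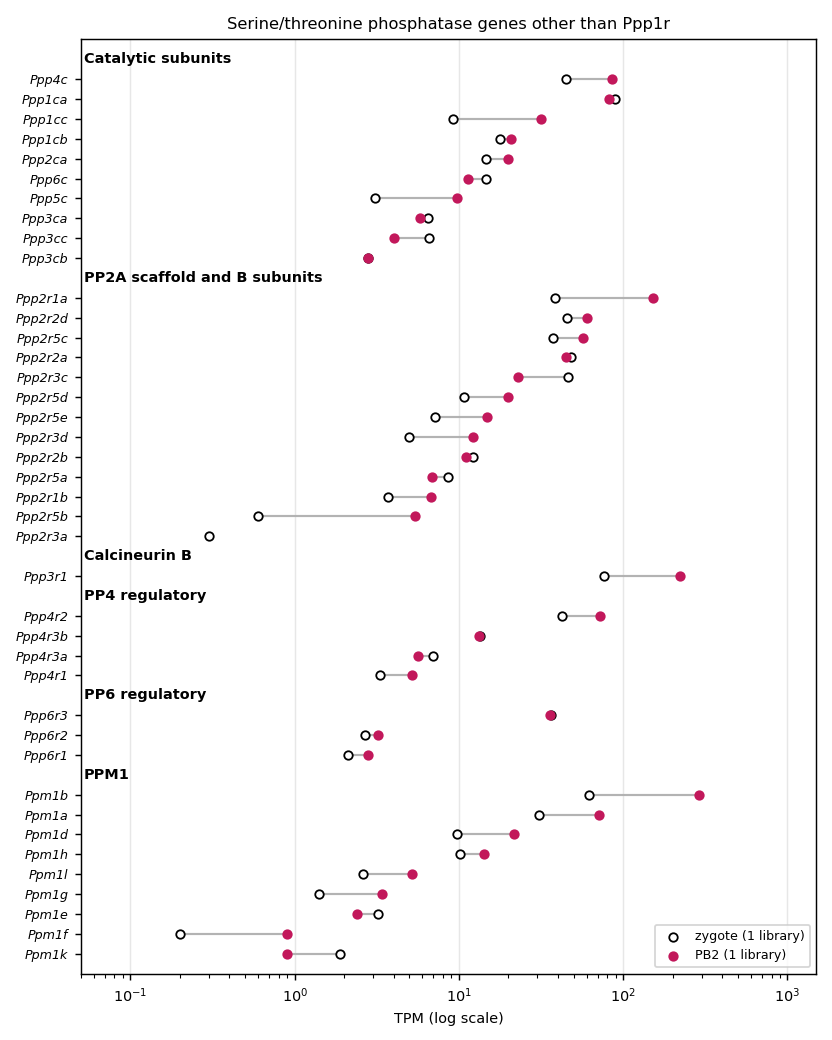
TPM on a log axis (x axis) of each serine/threonine phosphatase gene other than Ppp1r (rows, grouped by role and ordered by PB2 TPM), with open circles for the zygote library and filled circles for the PB2 library. Ppm1b, Ppp2r1a, Ppp3r1 and Ppp1cc show long bars towards PB2, and Ppp2r3c a bar towards the zygote, while Ppp2r3a, listed at 0 in PB2, has only its zygote circle at 0.3 TPM.

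PP2A is assembled from a scaffold, a catalytic subunit and a B subunit that selects substrates, and its scaffold showed the largest difference among the abundant subunits. Ppp2r1a, the main scaffold, had 152.1 TPM in PB2 against 38.4 in the zygote, a log2 ratio of 1.96. The alternative scaffold Ppp2r1b had 6.8 and 3.7 TPM. Ppp2r1a made up 95.7% of scaffold TPM in PB2 and 91.2% in the zygote. It lies in a higher-GC transcript (54.8%), and with the GC trend removed its log2 ratio was 1.34.

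The B subunits of PP2A went separate ways. The B55 subunits, which direct PP2A to the substrates of cyclin-dependent kinase, were near equal, with Ppp2r2a at 45.1 TPM in PB2 against 48.3 in the zygote. Ppp2r2d had 60.6 and 45.6 TPM, and Ppp2r2b had 11.0 and 12.2 TPM. No B55 gene was 2-fold apart, and their sum was 116.7 TPM in PB2 against 106.1 in the zygote. The B56 subunits, which act with shugoshin to protect centromeric cohesin in meiosis, were higher in PB2 for 4 of 5 genes (59.2% of all genes were) with a median log2 ratio of 0.82, but only Ppp2r5b passed 2-fold. Ppp2r5b had 5.4 TPM in PB2 against 0.6 in the zygote, and rounding of the deposited values allows any ratio between 8.23 and 9.91. Ppp2r5e (14.8 and 7.2 TPM) and Ppp2r5d (19.9 and 10.8 TPM) stayed just under 2-fold on the log2 ratio scale, while the plain TPM ratio of Ppp2r5e was 2.06. Ppp2r5c, the most abundant B56 gene, had 56.6 and 37.4 TPM, and Ppp2r5a had 6.9 and 8.6 TPM. The EF-hand subunits differed in direction, since Ppp2r3c had 22.9 TPM in PB2 against 45.9 in the zygote, a log2 ratio of -0.97, while Ppp2r3d had 12.1 and 5.0 TPM, a log2 ratio of 1.13. Ppp2r3a was listed at 0 in PB2 and had 0.3 TPM in the zygote.

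Calcineurin showed unequal levels of its subunits. The catalytic genes were low, with Ppp3ca at 5.8 TPM in PB2 against 6.5 in the zygote, Ppp3cb at 2.8 TPM in each library, and Ppp3cc at 4.0 and 6.6 TPM. Ppp3r1, the calcium-binding regulatory subunit, had 222.6 TPM in PB2 against 76.5 in the zygote, a log2 ratio of 1.53. Ppp3r1 stood above each of the catalytic genes in both libraries, and the summed catalytic TPM was 12.6 in PB2 and 15.9 in the zygote. Ppp3r1 lies on chromosome 11 of GRCm38 with exons that overlap those of Wdr92 on the same strand, and 14.7% of its 50-base words occur in Wdr92 transcripts. Wdr92 had 111 TPM in PB2 against 114.7 in the zygote, so its own values were near equal. The Ppp3r1 transcript is low in GC (41.4%), and with the GC trend removed its log2 ratio was 1.80.

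The regulators of PP4 and PP6 were within 2-fold before any trend was removed. With the GC trend removed, the direction of Ppp6r1, Ppp6r2, Ppp6r3 and Ppp4r3b turned. Ppp4r2, which carries PP4 to sites of DNA damage repair, had 72.1 TPM in PB2 against 42.2 in the zygote. Its log2 ratio was 0.76, or 1.04 with the GC trend removed, which is past 2-fold. Ppp4r1 had 5.2 and 3.3 TPM, Ppp4r3b had 13.2 and 13.4 TPM, and Ppp4r3a had 5.6 and 7.0 TPM. Ppp6r3, the most abundant PP6 regulator, had 35.9 and 36.4 TPM. Ppp6r1 and Ppp6r2 were between 2.1 and 3.2 TPM in both libraries.

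The PPM1 group had the member with the largest log2 ratio at the pseudocount of 1, while with a pseudocount of 0.1 that of Ppp2r5b was larger (2.97, against 2.22 for Ppm1b). Ppm1b, a phosphatase of stress-activated kinase and NF-kB pathways, had 290.2 TPM in PB2 against 62.2 in the zygote, a log2 ratio of 2.20. Ppm1a, its close relative, which removes the activating phosphate of Smad proteins, had 71.3 and 30.8 TPM, and Ppm1d (Wip1), which switches off the p53 and DNA damage response, had 21.7 and 9.7 TPM. These 3 of the 8 PPM1 genes compared (37.5%, against 18.9% of all genes) passed 2-fold, and none did towards the zygote. Ppm1d was at 0.90 with the GC trend removed. Neither Ppm1a nor Ppm1d stayed past 2-fold relative to the overall median or with the trend on transcript length removed. The other PPM1 genes compared were Ppm1h (14.2 and 10.1 TPM), Ppm1l (5.2 and 2.6 TPM), Ppm1g (3.4 and 1.4 TPM, a log2 ratio of 0.87), Ppm1e (2.4 and 3.2 TPM) and Ppm1k (0.9 and 1.9 TPM). The GC content of the Ppm1b transcript is 44.7%, below the 49.1% median of genes compared, and its log2 ratio with the GC trend removed was 2.30. Of its 50-base words 21.7% also occur in Gm7895.

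PP1 regulatory subunits, which place PP1 on its substrates or inhibit it, had a median log2 ratio of 0.49 over 23 genes. PB2 was at least 2-fold higher for 7 of them (30.4%, against 18.9% of all genes) and the zygote for 2 (8.7%, against 8.09%). The most abundant were within 2-fold. Ppp1r12a, which targets PP1 to myosin, had 314.7 TPM in PB2 against 226.8 in the zygote. Ppp1r14b, an inhibitor of that myosin phosphatase, had 157.7 and 112.4 TPM. Ppp1r11 (inhibitor-3) had 91.2 and 67.7 TPM. Their log2 ratios were 0.47, 0.48 and 0.42, above the median of all genes. With the trend of the log2 ratio on GC content removed they were 0.83, -0.55 and 0.01, so that Ppp1r14b, a transcript of 65.8% GC, turned in direction. Ppp1r15a (GADD34), which directs PP1 to the translation factor eIF2 alpha, had 59.9 and 35.2 TPM. Ppp1r10 (PNUTS), a nuclear subunit, had 35.9 and 24.0 TPM, and Ppp1r35, a centriole protein, had 31.1 and 16.7 TPM. These were also within 2-fold, and Ppp1r12b, Ppp1r14d, Ppp1r15b, Ppp1r21, Ppp1r27 and Ppp1r9a were at most 8.3 TPM in both libraries.

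The PP1 regulators past 2-fold were mostly of low or moderate abundance. Ppp1r9b (spinophilin), which binds actin, had 13.3 TPM in PB2 against 3.0 in the zygote, a log2 ratio of 1.84. Ppp1r13b (ASPP1), a partner of p53, had 12.1 and 3.6 TPM, and its inhibitory relative Ppp1r13l had 3.6 and 1.3 TPM. Ppp1r3d, a glycogen-targeting subunit, was the most abundant of the 7 at 52.4 TPM in PB2 against 20.8 in the zygote. Ppp1r2 (inhibitor-2) had 6.4 and 2.2 TPM, Ppp1r37 had 3.4 and 0.4 TPM, and Ppp1r26 had 1.9 and 0.1 TPM. The last 2 are close to the smallest deposited step of 0.1 TPM, and the Ppp1r37 ratio can lie anywhere between 7.44 and 9.86. With the GC trend removed, 1 of the 7, Ppp1r2, was still past 2-fold. Towards the zygote, Ppp1r7 (Sds22), which helps assemble active PP1, had 10.3 TPM in PB2 against 21.8 in the zygote, and Ppp1r42 had 1.6 and 4.4 TPM. Ppp1r8 (NIPP1), a nuclear PP1 subunit, had 6.9 and 14.1 TPM, just short of 2-fold on the log2 ratio scale (-0.93). With the GC trend removed its log2 ratio was -1.30, past 2-fold. Ppp1r14c had 3.5 and 6.8 TPM.

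**Figure D3:**
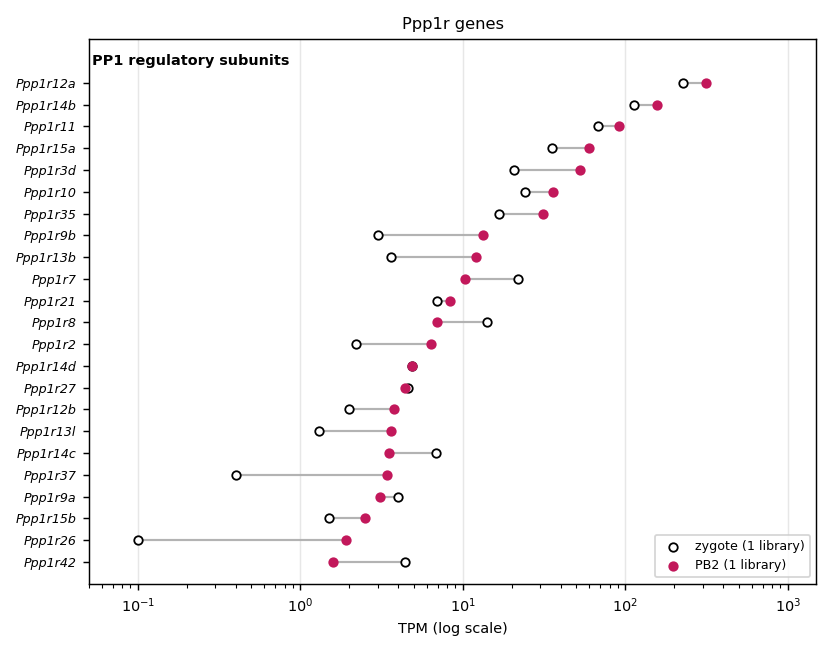
TPM on a log axis (x axis) of the 23 Ppp1r genes (rows, ordered by PB2 TPM), with open circles for the zygote library and filled circles for the PB2 library. The 3 most abundant genes have short bars, while Ppp1r9b, Ppp1r37 and Ppp1r26 have long bars towards PB2 and Ppp1r7, Ppp1r8 and Ppp1r42 bars towards the zygote.

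Dual-specificity phosphatases held the most abundant member of all, and 10 of the 12 genes had the higher TPM in PB2, against 59.2% of all genes. The catalytic site of this class and of the tyrosine class is a short motif in which histidine and cysteine are followed, after any pair of residues, by glycine and, after another pair, by arginine. The cysteine carries out the reaction. The motif was found in the coding sequence of 43 of the 43 Dusp, Ptpn, Ptpr and Ptp4a genes, and 9 of them, all Ptpr genes, held it 2 times. It is printed for some abundant genes of each family and for Ptpn22, the tyrosine-class gene past 2-fold towards the zygote, with the cysteine codon in capitals.
Dusp14: cacTGTgcggcaggcgtgagccgc
Dusp7: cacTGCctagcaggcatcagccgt
Dusp1: catTGCcaggccggcatctcccgg
Ptpn21: cacTGCagtgctggcgtgggaaga
Ptpn22: cacTGCagtgccggctgcggaagg
Ptpn11: cacTGCagcgctgggattggccgg
Ptp4a2: catTGTgttgcaggattgggaagg
Ptpre: cacTGTagcgcgggcgtgggtcgg

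In GRCm38 these lie within a coding exon at chr11:84048863-84048886 minus for Dusp14 (exon 4), chr9:106373674-106373697 plus for Dusp7 (exon 3), chr17:26506592-26506615 minus for Dusp1 (exon 4) and chr12:98679330-98679353 minus for Ptpn21 (exon 18). The others run across an exon junction, so that their span holds an intron. They are chr3:103876730-103877320 plus for Ptpn22, chr5:121143614-121144537 minus for Ptpn11, chr4:129845170-129846465 plus for Ptp4a2 and chr7:135669153-135669737 plus for Ptpre, where the site printed is that of the domain nearer the membrane.

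Dusp14, an atypical phosphatase reported to act on MAP kinase signaling, had 858.4 TPM in PB2 against 611.0 in the zygote, a log2 ratio of 0.49. It ranked 137 among all genes in PB2 and 218 in the zygote, and made up 54.1% of the Dusp sum in PB2 against 62.6% in the zygote. Each of the 5 MAP kinase phosphatases proper in the table was higher in PB2, as were 59.2% of all genes. Of the 5, 3 passed 2-fold, as did 18.9% of all genes. Dusp7, a cytoplasmic phosphatase of ERK, had 325.2 TPM in PB2 against 124.5 in the zygote, a log2 ratio of 1.38. Dusp1, a nuclear phosphatase induced by many stimuli, had 164.2 and 71.0 TPM, and Dusp16, which acts on JNK and p38, had 13.2 and 6.0 TPM. Within 2-fold on the log2 ratio scale were Dusp10 (31.8 and 24.0 TPM) and Dusp2 (3.1 and 1.4 TPM). The plain TPM ratio of Dusp2 was 2.21, and its log2 ratio 0.77, which turned to -0.12 with the GC trend removed. The median GC content of the 5 transcripts is 54.9%, and with the GC trend removed no Dusp gene was 2-fold apart, with Dusp7 at 0.56 and Dusp1 at 0.57. Dusp16, at 47.8% GC, moved little, from 1.02 to 0.93.

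The other atypical Dusp genes were within 2-fold. Dusp23 had 70.7 TPM in PB2 against 36.3 in the zygote, Dusp18 had 34.0 and 17.4 TPM, and Dusp19 had 9.6 and 6.5 TPM. Dusp12, a zinc-binding phosphatase, had 69.0 TPM in both libraries. Dusp22 had 5.5 and 6.4 TPM, and Dusp11, which removes phosphates from RNA ends, had 2.0 and 1.8 TPM. Dusp22 was the only Dusp gene with the lower TPM in PB2.

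Intracellular tyrosine phosphatases included a pair of abundant genes that stood in opposite order in the libraries. Ptpn21, a FERM-domain phosphatase linked to Src signaling at the cytoskeleton, had 554.2 TPM in PB2 against 133.9 in the zygote, a log2 ratio of 2.04. Ptpn2, a phosphatase of JAK and STAT proteins, had 250.0 TPM in PB2 against 381.6 in the zygote, a log2 ratio of -0.61. Ptpn21 thus made up 57.1% of Ptpn TPM in PB2 and 21.4% in the zygote, and Ptpn2 made up 25.7% and 61.1%. The Ptpn21 transcript has 51.3% GC, and its log2 ratio with the GC trend removed was 1.69. The Ptpn2 transcript has 39.7% GC, and its log2 ratio became -0.25.

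Of the 11 Ptpn genes compared, 5 passed 2-fold towards PB2 (45.5%, against 18.9% of all genes) and 1 towards the zygote (9.09%, against 8.09%). Ptpn11 (Shp2), which carries receptor signals to Ras and ERK, was within 2-fold at 102.3 TPM in PB2 against 57.7 in the zygote. Its relative Ptpn6 (Shp1), best known in blood cells, had 13.6 and 3.2 TPM, a log2 ratio of 1.80. Ptpn23, which sorts receptors in endosomes, had 12 and 4.6 TPM, Ptpn9 had 10.8 and 4.7 TPM, and Ptpn1 (PTP1B), a phosphatase of the insulin receptor at the endoplasmic reticulum, had 5.8 and 1.6 TPM. Ptpn22, known from lymphocytes, went the other way at 13.6 TPM in PB2 against 28.3 in the zygote, a log2 ratio of -1.0. The leukocyte markers in the table were Laptm5, at 10.3 TPM in PB2 against 9.1 in the zygote, and Cd53, at 2.4 and 1.2 TPM. Their part in the Ptpn6 and Ptpn22 values was not tested. With the GC trend removed, 2 of the 5 genes past 2-fold towards PB2 stayed there, namely Ptpn21 and Ptpn6. Ptpn22 moved little, from -1.0 to -0.93, but was no longer past 2-fold. Ptpn12, Ptpn13 and Ptpn3 were between 1.6 and 5.4 TPM in both libraries.

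The Ptp4a genes, small membrane-bound phosphatases with a lipid anchor, were within 2-fold. Ptp4a2 had 331.9 TPM in PB2 against 234.4 in the zygote, and Ptp4a1 had 40.7 and 45.3 TPM. The Ptp4a1 level is uncertain, because 92.5% of its 50-base words also occur in an overlapping gene of the same symbol in GENCODE M21.

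**Figure D4:**
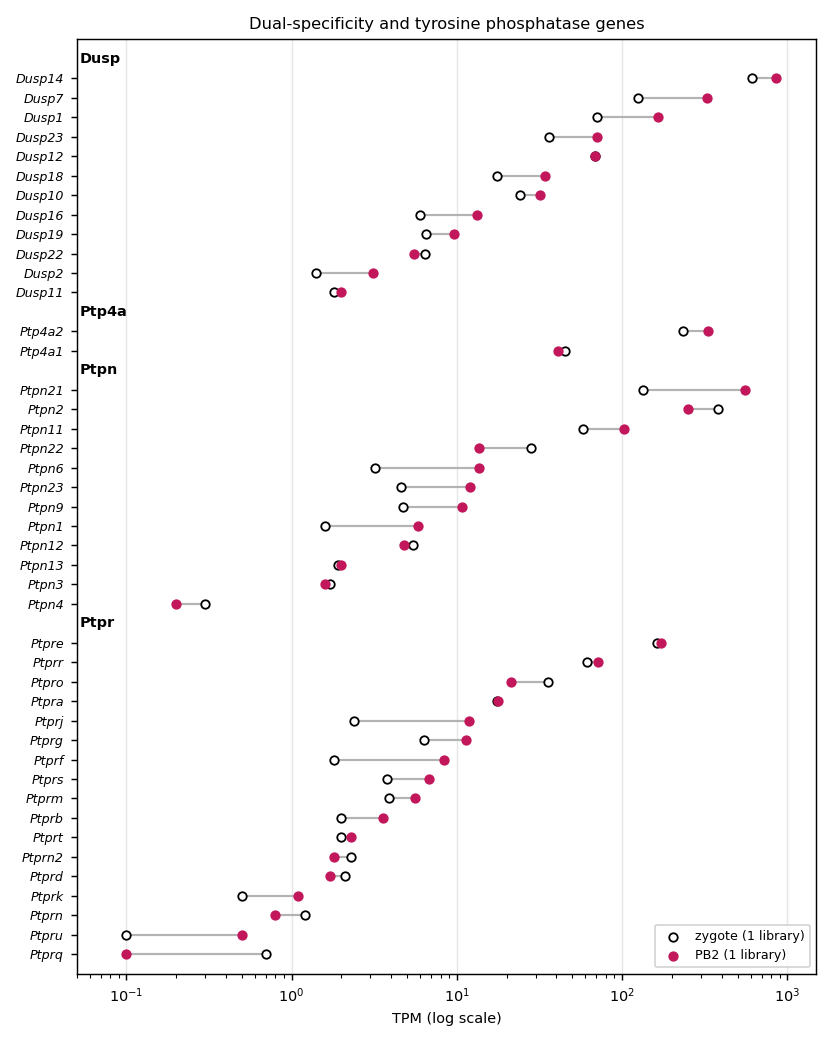
TPM on a log axis (x axis) of the dual-specificity and tyrosine phosphatase genes (rows, grouped by family and ordered by PB2 TPM), with open circles for the zygote library and filled circles for the PB2 library. Dusp14 is the most abundant in both libraries, Ptpn21 and Ptpn2 stand in opposite order in PB2 and the zygote, and the Ptpr genes other than Ptpre, Ptprr, Ptpro and Ptpra lie mostly near or below 10 TPM.

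Receptor-like phosphatases were mostly low and close to equal, with a median log2 ratio of 0.20 over 15 genes, near that of all genes. Ptpre, the most abundant, had 172.5 TPM in PB2 against 163.6 in the zygote, and held 51.0% and 53.2% of Ptpr TPM. Ptprr, which binds ERK, had 71.1 and 61.8 TPM, and Ptpra, an activator of Src kinases, had 17.8 and 17.5 TPM. Ptpro had 21.2 TPM in PB2 against 35.8 in the zygote, a log2 ratio of -0.73. Only Ptprj and Ptprf passed 2-fold. Ptprj (DEP-1) had 11.9 TPM in PB2 against 2.4 in the zygote, a log2 ratio of 1.92, and Ptprf (LAR), an adhesion receptor, had 8.4 and 1.8 TPM, a log2 ratio of 1.75. Ptprj stayed past 2-fold with the GC trend removed and Ptprf did not. The adhesion-type relatives Ptprs (6.8 and 3.8 TPM) and Ptprm (5.6 and 3.9 TPM) were within 2-fold, as were Ptprg (11.3 and 6.3 TPM) and Ptprb (3.6 and 2.0 TPM). Ptprd, Ptprk, Ptprn, Ptprn2 and Ptprt were at most 2.3 TPM in both libraries.

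The log2 ratio moved with GC content in the members as in the whole table. Median GC content was 54.7% for the 26 members past 2-fold towards PB2 (54.3% for all genes past it), 45.1% for the 3 genes past 2-fold towards the zygote and 48.8% for the 72 between. Across the 101 members, the log2 ratio and GC content had a Spearman's rho of 0.41, compared with 0.44 over the 10629 genes with a transcript. These are correlations across genes of the same pair of libraries, which are not independent replicates. With all genes split into 3 equal sets by GC content, 33 members were in the highest set (above 52.2%). Of these, 15 passed 2-fold towards PB2, while 37.6% of all genes in the set did. In the lowest set (up to 46.2%) 5 of 33 members did, and 4.94% of all genes. With the GC trend over all genes removed, 13 members passed 2-fold towards PB2 and 4 towards the zygote. Of the 10629 genes with a transcript, 1011 and 1120 did so. Those kept of the 26 were 11 genes, namely Ppm1a, Ppm1b, Ppp1cc, Ppp1r2, Ppp2r1a, Ppp2r3d, Ppp2r5b, Ppp3r1, Ptpn21, Ptpn6 and Ptprj. Among the 26, Ppp3r1, Ppp1r2, Ppm1a, Ppm1b and Ppp2r3d lie in the lowest set, at 41.4% to 46.1% GC. The part of GC content in the differences was not tested.

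**Figure D5:**
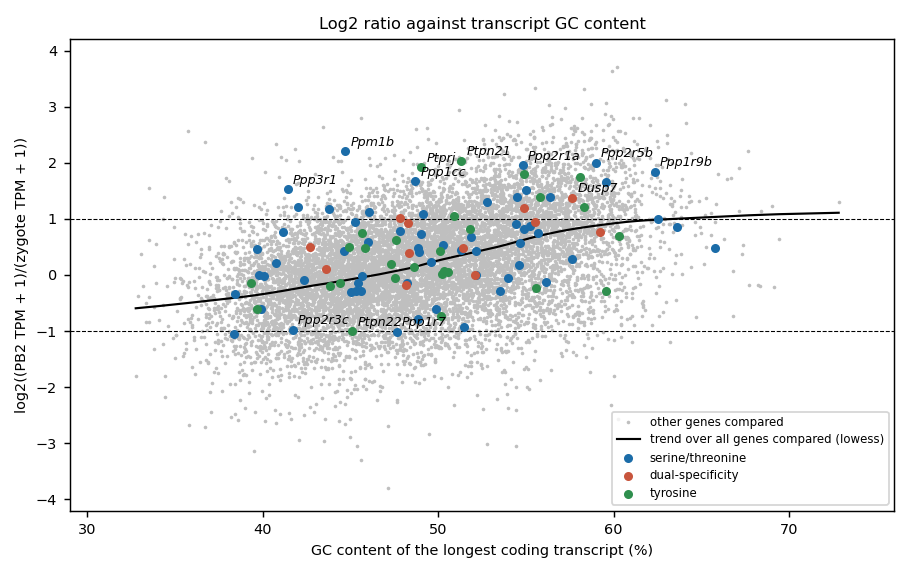
Log2 ratio of PB2 over zygote TPM (y axis, pseudocount of 1) against the GC content of the longest coding transcript (x axis, %), with grey points for the other genes compared, coloured points for the phosphatase classes, a black line for the trend over all genes and dashed lines at 2-fold. Ppm1b (44.7% GC) and Ppp3r1 (41.4% GC) stand above 1 in the low-GC range where the trend lies below 0, while Dusp7 (57.6% GC) stands 0.56 above it.

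Length and the sequence of the transcript end were also examined. For transcript length, rho was -0.02 across the 101 members and 0.17 across all genes. The cytoplasmic polyadenylation element, a sequence that controls tail length of stored oocyte mRNAs, was searched as TTTTAT or TTTTAAT on the sense strand of the last 150 bases of each longest coding transcript. It was present in 31 of 101 members (30.7%) and in 25.2% of all genes compared. It was found in 8 of 12 Ppp2r genes and 6 of 12 Dusp genes, and in 4 of the 26 members past 2-fold towards PB2, against 24.8% of all genes past 2-fold towards PB2. Matches describe letters in 1 annotated transcript end per gene, which need not be the end used in the egg.

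Most members shared no long sequence with other genes. In 72 of the 106 genes no 50-base word of the longest coding transcript occurred in a transcript of another gene, and in 11 genes more than 5% of the words did. Besides Ptp4a1, Ppp1cc, Ppm1b and Ppp3r1, these included Ppp1r14b (37.6%), Ppp4r2 (19.0%) and Ppp2r3c (12.6%). For 27 members an exon overlapped a gene on the opposite strand, among them Ppp1ca, Ppp1r7, Ppp2r3c and Ptpn6. Whether the counting used the strand is not given in the sources used here, so reads of such pairs cannot be told apart.

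Phosphatase genes outside the symbol rule, and regulators of PP2A and calcineurin, were taken from a list by role. Of the 67 genes listed, 59 were in the table and 58 were compared, with a median log2 ratio of 0.52. PB2 was at least 2-fold higher for 14 (24.1%, against 18.9% of all genes) and the zygote for 6 (10.3%, against 8.09%). Of the Cdc25 phosphatases, which activate cyclin-dependent kinases, Cdc25a had 86.7 TPM in PB2 against 27.8 in the zygote, and Cdc25b, which is needed for meiotic resumption, had 42.1 and 15.9 TPM. Of the 19 PP2A modifiers and partners, 4 passed 2-fold towards PB2 and 2 towards the zygote. These shares, 21.1% and 10.5%, were near the 18.9% and 8.09% of the whole table. Their median log2 ratio was -0.08. With the GC trend removed, 3 passed 2-fold towards PB2 and 0 towards the zygote. Bod1, an inhibitor of PP2A-B56, had 729.4 TPM in PB2 against 184.5 in the zygote. Inhibitors of PP2A-B55 differed in direction. Fam122a had 550.1 TPM in PB2 against 240.1 in the zygote, a log2 ratio of 1.19, or 0.29 with the GC trend removed. The kinase Mastl stood at 78.0 TPM in PB2 against 156.5 in the zygote, and its substrates Arpp19 at 60.6 and 85.6 TPM and Ensa at 15.7 and 26.6 TPM, all within 2-fold on the log2 ratio scale. Cip2a, a PP2A inhibitor, had 46.0 and 96.2 TPM, a log2 ratio of -1.05, or -0.62 with the GC trend removed. All 6 calcineurin regulators and targets compared had the higher TPM in PB2, against 59.2% of all genes, and 3 passed 2-fold (1 with the GC trend removed), namely Cabin1 (44.4 and 14.4 TPM), Rcan1 (25.1 and 9.5 TPM) and Nfatc2 (4.7 and 0.6 TPM).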

How the data were processed

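TPM values of 1 PB2 library and 1 zygote library were used. According to the methods, the authors aligned reads with HISAT2 2.0.4, counted them per gene with HTSeq 0.6.1p1 and normalized with DESeq2 1.18.1, and the deposited table gives TPM with 1 decimal. The step from reads to TPM is not given in the sources used here. The builds named are OryCun2.0 and GRCm38, and the identifiers are mouse. The column names were matched to samples by name, and 0 columns were left over.

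Log2 ratios used a pseudocount of 1 over genes with at least 1 TPM in either library. Transcripts, GC content and positions came from GENCODE M21 (GRCm38), which held 106 of 106 members. GC and length trends were fitted by lowess (span 0.3). The fit was tried on simulated data with a straight GC slope only, and no length trend was simulated. That trial does not give the error of the calls made here. Genes were named as all catalytic subunits, the 3 most abundant of each subgroup, up to 6 per class and direction past 2-fold with at least 5 TPM, and genes listed at 0, and the others after their values were seen. The members and lists were chosen with earlier results of these data known. Alternatives were other pseudocounts, filters, thresholds, scalings and classes. Python 3.11.15, pandas 2.3.3 and statsmodels 0.14.6 were used.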

Additional observations from a re-analysis of the deposited data

How the results depend on the processing

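No paired analysis was possible because PB2 and the zygote have a single library each, which also leaves none to omit. No result past 2-fold changed direction. Sign changes were counted only among genes named by the criteria listed above, not those named after their values were seen. Within 2-fold, their log2 ratios changed sign in 8 cases with the GC trend removed, 3 with centring, 5 with the length trend removed and 1 with scaling. Other genes also turned with the GC trend removed, among them Ppp1r35 (0.86 to -0.14), Ptprs (0.70 to -0.23) and Dusp2 (0.77 to -0.12). Among the sign changes counted, those that moved most were Ppp1r14b (0.48 to -0.55), Ppp6r1 (0.29 to -0.52) and Ppp6r2 (0.18 to -0.42), all with the GC trend removed. Of the recomputed summary values 59 stayed within the limits set (1.5 times for a count, 0.25 for a median) and 31 did not. For single genes named by those criteria, 265 values stayed within 0.5 and 17 did not. The values are in PB2 unless the zygote is named, with the causes not tested where a scaling or trend is concerned. The 26 members past 2-fold became 13 with the GC trend removed, 17 with the length trend removed, 44 at 1.5-fold and 3 at 4-fold. The 3 towards the zygote became 6 with a pseudocount of 0.1 or 0.01 and with centring, 5 with scaling, 7 with the length trend removed, 10 at 1.5-fold and 0 at 4-fold. Over all genes, the 2009 past 2-fold towards PB2 became 1011 with the GC trend removed, and the 861 towards the zygote became 1120. Counts over all genes are not given for the other settings. The serine/threonine count of 16 became 10 (GC), 27 (1.5-fold) and 2 (4-fold). Without regulatory subunits it became 5 of 18 genes compared, a share of 27.8% against 26.2% for the whole class. The dual-specificity count of 3 became 1 (centring or length trend), 0 (GC or 4-fold) and 6 (1.5-fold), and the tyrosine count of 7 became 3 (GC), 11 (1.5-fold) and 1 (4-fold). Medians with the GC trend removed were 0.22 for all members, 0.22 for serine/threonine and 0.27 for dual-specificity genes, and with the length trend removed 0.21 for all members, 0.23 for serine/threonine and 0.0022 for tyrosine genes. The tyrosine median was 0.60 with a filter at 5 TPM. At 5 TPM 60 members were expressed in the zygote. Depth is unknown, so the counting error of genes under a few TPM cannot be given.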
